A study of Oryctolagus cuniculus with 8 samples.

Results

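Astrocyte and gliosis genes were examined in the retina of rabbits fed 4 diets: GFAP, PAX2, VIM, NES, STAT3, SOCS3, LIF, EDN2 and CD44. The members were taken by gene symbol, and 8 of the 9 were found, each in 1 row, among 25666 genes. SOCS3 was not analysed here. The question was whether GFAP was joined by other signs of gliosis or followed the astrocytes of the nerve fibre layer. Wild-type male Chinchilla rabbits, about 10 months old at sampling, ate standard chow (ND), chow with 10% lard and 0.5% cholesterol (HFD), chow with 40% sucrose (HSD), or chow with the same lard and cholesterol (10% and 0.5%) plus 35% sucrose (HFSD) for 6 months. RNA of 2 dissected retinas per diet was sequenced, each retina as 1 library. Nothing in the sources says that the 2 retinas of a diet came from separate rabbits, so no p-value here reaches beyond these retinas. Those of the diet comparisons measure the spread between these retinas only.

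GFAP encodes the intermediate filament of astrocytes, and Müller cells, the radial glia of the retina, make it when they react to injury. Reacting Müller cells are also known to raise vimentin and nestin, often after LIF or related cytokines act through the transcription factor STAT3, and EDN2 is made by stressed photoreceptors. Astrocytes enter the retina with the optic nerve fibres and express the transcription factor PAX2. In the rabbit, astrocytes, blood vessels and the myelinated nerve fibres are all largely confined to the medullary rays, the band of nerve fibres on either side of the optic nerve head.

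Levels are given in FPKM, fragments scaled to gene length and library total, so they can be set side by side between genes. The recovered totals behind them ran from 15764577 to 22785832 fragments per library. Rod genes summed to between 41417 and 55871 FPKM in every library, as the tissue label requires. The library of HSD retina 2 stood apart, with skeletal muscle genes summing to 616 FPKM against 2.61 to 4.17 FPKM in the other 7, and fibroblast genes to 53.9 FPKM against 18.1 to 30.2 FPKM. Pigment epithelium genes summed to 468 and 373 FPKM in ND and to between 132 and 226 FPKM in the enriched diets. In whole retina, fewer cells of a type and less RNA per cell cannot be told apart.

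GFAP varied 485-fold over the 8 retinas. Its level was 524 and 12.1 FPKM in the ND retinas, 216 and 203 FPKM in HFD, 2.37 and 1.08 FPKM in HSD, and 3.05 and 69.5 FPKM in HFSD. One ND retina was thus the highest of all and the other lay below a retina of the HFSD group, while the HSD retinas were the lowest and did not overlap ND. The mean level was 268±362 FPKM in ND, 209±9.32 FPKM in HFD, 36.3±47.0 FPKM in HFSD and 1.72±0.908 FPKM in HSD (s.d., n=2 each). In this order, taken from the means, HFD overlapped ND, HFSD lay below HFD without overlap, and HSD lay below HFSD without overlap. The higher HSD retina (2.37 FPKM) was close to the lower HFSD retina (3.05 FPKM). The share of all genes that separate between HFD and HFSD or between HFSD and HSD was not computed.

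The gap within a diet was among the widest of any gene. Between the ND retinas GFAP differed 43.3-fold, the 4th largest log2 difference of 12204 genes tested, and between the HFSD retinas it differed 22.8-fold, the 5th largest. The HFD retinas, in contrast, differed 1.07-fold and ranked 9604th. Even the lowest retina held 30 GFAP fragments and the highest 16500, so counting error was small beside these gaps.

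**Figure D1:**
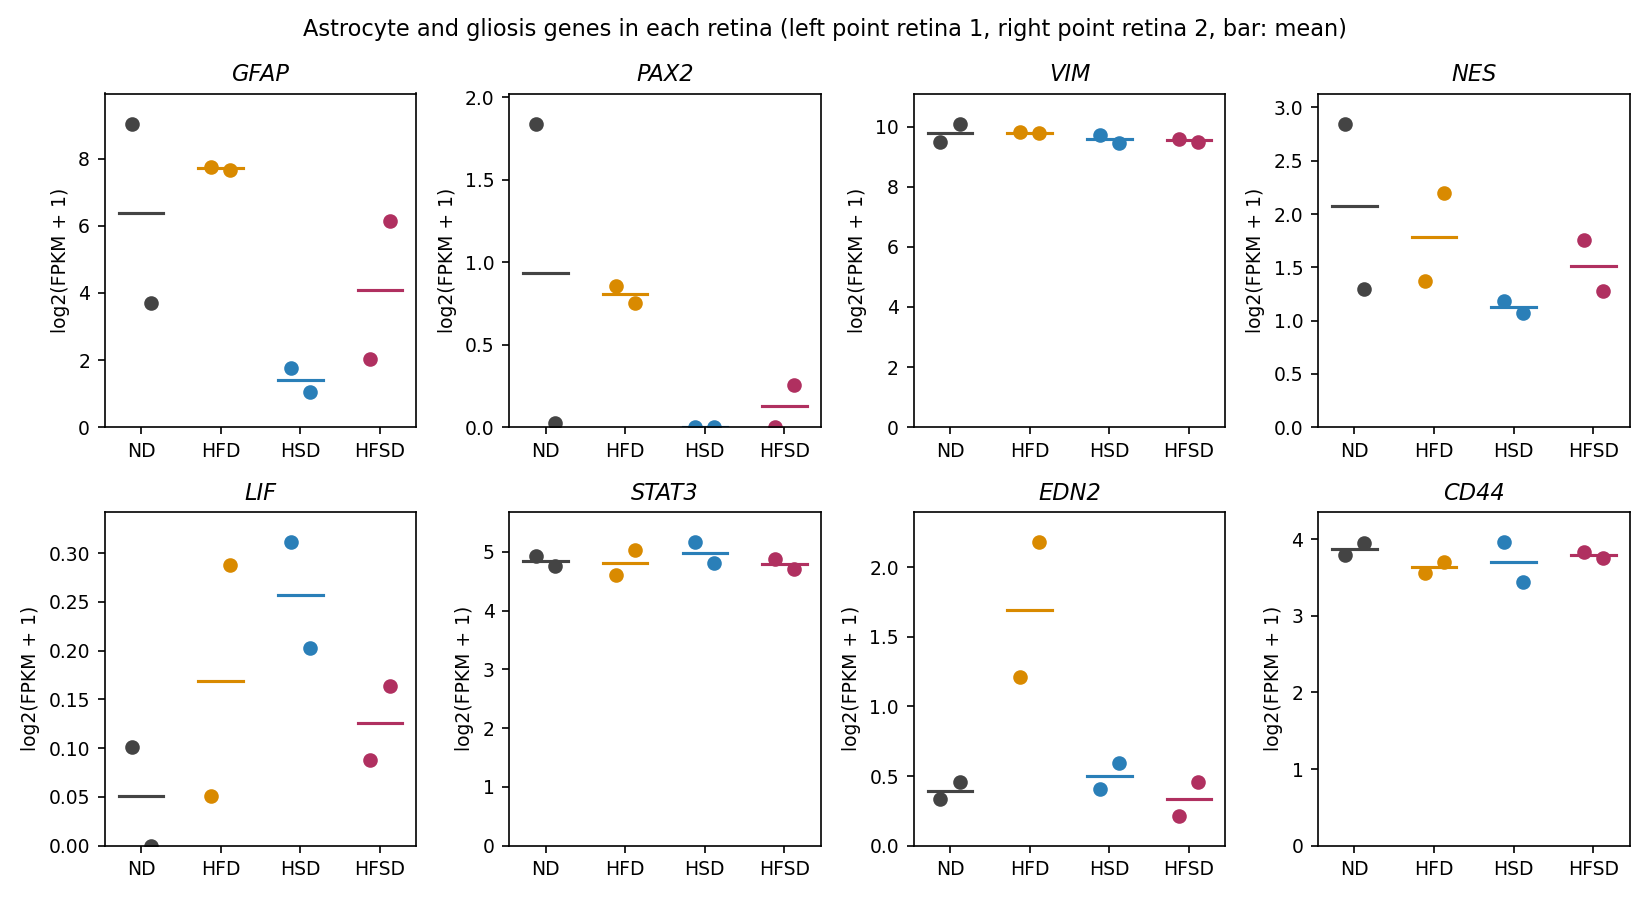
Level of the 8 members found, as log2(FPKM + 1) on an axis from 0, in each of the 2 retinas of ND, HFD, HSD and HFSD; points are single retinas and bars are means of 2. GFAP, PAX2 and NES share a highest point in ND retina 1, whereas VIM, STAT3 and CD44 stay nearly level and EDN2 is highest in both HFD retinas.

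PAX2, the astrocyte transcription factor, was scarce and followed GFAP. The ND retinas held 2.58 and 0.0191 FPKM, from 149 and 1 fragments. The HFD retinas held 0.814 and 0.687 FPKM, from 48 and 37 fragments. In the sucrose diets only HFSD retina 2 had any PAX2, at 0.193 FPKM from 9 fragments, and the count was 0 in both HSD retinas and in HFSD retina 1. A count of 0 was taken to allow up to 3 fragments, where the exact Poisson 95% interval reaches 3.69. Over both HSD libraries 3 fragments are 0.0308 FPKM. The HFD mean was 24.4 times this limit, with the counting error of the HFD counts left out. No such fold holds for ND retina 2, which had a single fragment. The limit covers the counting error of the HSD counts only.

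The 4 retinas with more than 5 PAX2 fragments were the 4 with the most GFAP. The ND retina with 1 PAX2 fragment still had 345 GFAP fragments. PAX2 did not reach the filter of 1 FPKM in 2 libraries, and in a fit without the filter its log2 fold change was -0.93 in HSD against ND (limma, adjusted p=0.847 by Benjamini-Hochberg). In HFSD it was -0.81 (limma, adjusted p=0.885).

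VIM, the filament protein that Müller cells express at all times, was the most abundant member. It measured 711 and 1090 FPKM in ND, 905 and 872 FPKM in HFD, 840 and 697 FPKM in HSD, and 773 and 716 FPKM in HFSD. Every diet overlapped ND, and the highest VIM level was in the ND retina with the lower GFAP. The log2 fold change against ND was 0.01 for HFD (95% interval -0.50 to 0.53), -0.20 for HSD (-0.72 to 0.31) and -0.24 for HFSD (-0.76 to 0.27). These intervals leave room for changes of up to the stated bounds in either direction.

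NES, a filament protein of immature and reacting glia, was low. It measured 6.19 and 1.46 FPKM in ND, 1.59 and 3.58 FPKM in HFD, 1.27 and 1.11 FPKM in HSD, and 2.38 and 1.42 FPKM in HFSD. The HSD retinas lay below both ND retinas, and the other diets overlapped ND. The log2 fold change in HSD was -0.94 with a standard error of 0.50 (limma, unadjusted p=0.0979, adjusted p=0.762). Without ND retina 1 it was -0.17.

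LIF, the cytokine that acts on Müller cells through gp130, was near the limit of detection. Its counts were 6 and 0 fragments in ND, 3 and 17 fragments in HFD, 16 and 11 fragments in HSD, and 6 and 8 fragments in HFSD. Its highest level was 0.241 FPKM, in HSD retina 1. The HSD retinas lay above both ND retinas, yet the exact Poisson 95% intervals of the lower HSD count (5.49 to 19.7) and the higher ND count (2.20 to 13.1) overlapped. LIF also missed the filter, and its log2 fold change in the unfiltered fit was 0.21 in HSD (limma, adjusted p=0.838).

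STAT3, which carries the signal of these cytokines to the nucleus, was steady. It measured 29.3 and 26.2 FPKM in ND, 23.3 and 31.7 FPKM in HFD, 34.8 and 27.0 FPKM in HSD, and 28.5 and 25.2 FPKM in HFSD. Every diet overlapped ND. The log2 fold change was -0.02 for HFD (95% interval -0.45 to 0.40), 0.14 for HSD (-0.29 to 0.57) and -0.04 for HFSD (-0.47 to 0.38).

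CD44, the hyaluronan receptor found on Müller cell processes, was steady as well. It measured 12.8 and 14.5 FPKM in ND, 10.8 and 12.1 FPKM in HFD, 14.6 and 9.86 FPKM in HSD, and 13.3 and 12.5 FPKM in HFSD. The HFD retinas lay below both ND retinas by a small margin. The log2 fold change there was -0.24 (95% interval -0.66 to 0.19), and it was -0.17 in HSD (-0.60 to 0.25) and -0.07 in HFSD (-0.50 to 0.35).

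EDN2, the endothelin of stressed photoreceptors, was the one member whose HFD retinas both lay above all the others. It measured 0.262 and 0.372 FPKM in ND, 1.32 and 3.53 FPKM in HFD, 0.325 and 0.509 FPKM in HSD, and 0.161 and 0.371 FPKM in HFSD. Both HFD retinas, with 36 and 88 fragments, stood above the other 6, which had 5 to 12. EDN2 passed the filter only through the HFD libraries, so the filter itself chose it for the diet where it is high. Its log2 fold change in HFD was 1.30 with a standard error of 0.33, given here as a description. It was 2.46 with 0.1 in place of 1 added to the FPKM, and 2.67 by voom on the recovered fragments. Counts of tested members at an unadjusted p, or with groups that do not overlap, leave EDN2 out.

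HFD retina 2, the library with the most EDN2, was also the highest in DUSP1, ATF3 and CEBPB, though not in all early-response genes. DUSP1, a phosphatase of MAP kinases, was at 55.2 FPKM there against 3.10 to 7.57 FPKM in the other 7 libraries, and the transcription factor ATF3 was at 53.5 FPKM against 5.21 to 9.70 FPKM. EGR1 was instead highest in ND retina 1, at 1548 FPKM against 242 FPKM in HFD retina 2, and so was FOSB, at 170 against 24.8 FPKM. HFD retina 1 was not raised in DUSP1 or ATF3, which lay at 4.63 and 7.74 FPKM, and its EDN2 level was still 1.32 FPKM. Without HFD retina 2 the log2 fold change of EDN2 was 0.82. The part of these genes in the EDN2 result was not tested.

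Of the 6 members tested (GFAP, VIM, NES, STAT3, EDN2 and CD44), 0 were called at an adjusted p under 0.05 in any comparison by limma, and voom on the recovered fragments also called 0. Over all 12204 tested genes 0.00819% were called in HFD against ND, 0.0574% in HSD against ND and 0.0164% in HFSD against ND. Of the 5 other than EDN2, 0 passed an unadjusted p under 0.05 in HFD, 1 in HSD (GFAP) and 0 in HFSD, where 4.31%, 7.20% and 8.07% of all tested genes passed. The median log2 fold change of these 5 was -0.02 for HFD, -0.20 for HSD and -0.24 for HFSD, beside 0.0064, -0.0018 and -0.0040 over all tested genes.

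GFAP had the widest errors of the members tested. Its log2 fold change was -4.97 in HSD against ND with a standard error of 1.76 (limma, unadjusted p=0.0244, adjusted p=0.592). In HFSD it was -2.30 (limma, unadjusted p=0.232, adjusted p=0.781), and in HFD it was 1.34 (limma, unadjusted p=0.470, adjusted p=0.998). The HFD value is a difference of mean logs and points the other way from the mean levels, whose ratio of FPKM + 1 was 0.782. All 3 comparisons share the same ND retinas. Without ND retina 1 the value was 4.0 in HFD and 0.37 in HFSD, and without ND retina 2 it was -1.32 and -4.96, so the choice of control retina turned the direction in both. In HSD it stayed negative, at -2.31 and -7.63, and without HSD retina 2, the library with muscle RNA, it was -4.62.

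**Figure D2:**
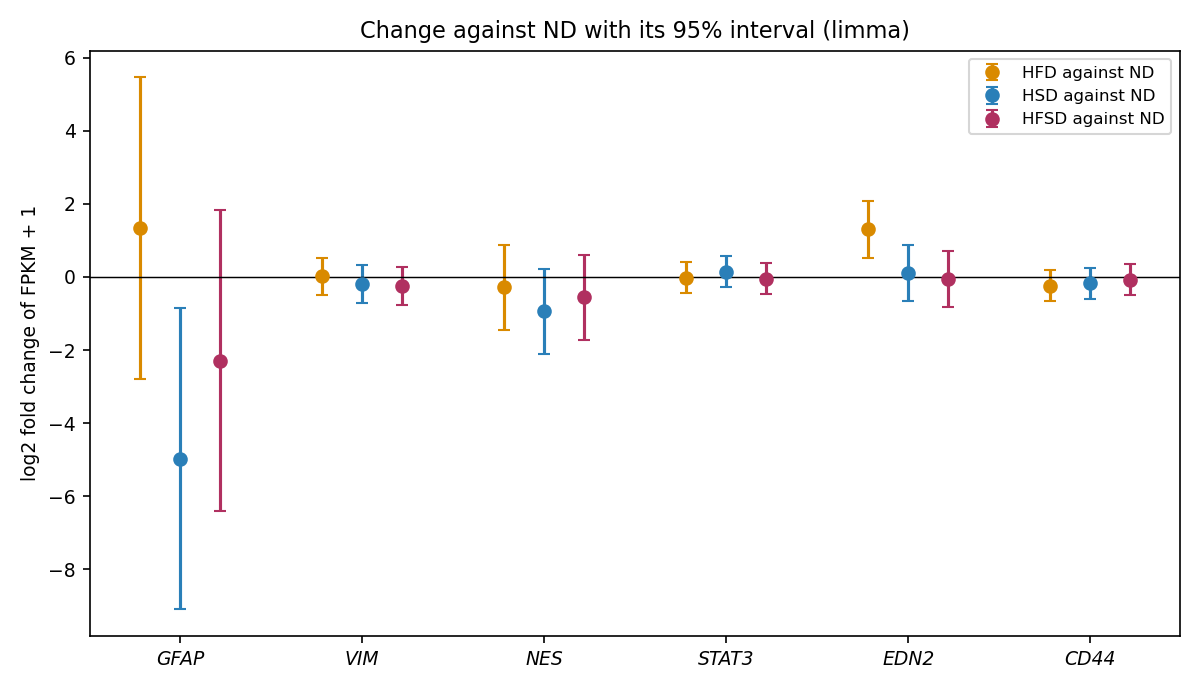
Log2 fold change of FPKM + 1 against ND for the 6 members tested, with points for the HFD, HSD and HFSD groups and bars for the 95% interval from limma with 2 retinas per diet. The bars of GFAP span more than 8 log2 units, those of VIM, STAT3 and CD44 lie close around 0, and that of GFAP in HSD does not cross 0 before adjustment for the genes tested. EDN2 entered the fit only through HFD.

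The methods of the study set limits of 1.54 and 0.65 on the ratio of FPKM + 1, without regard to the spread, and do not say how the 2 retinas of a diet were joined. With the limits applied here to the diet means, a choice that may differ from the study's, 1 member found was higher in HFD (EDN2, 2.60-fold), where 0.949% of 19293 protein-coding genes, taken without the filter, were higher. In HSD 3 were lower, GFAP at 0.0101, PAX2 at 0.435 and NES at 0.453 of ND, where 2.42% of genes were lower. In HFSD the same 3 were lower, at 0.139, 0.477 and 0.602, where 2.40% were lower. EDN2 in HFD and GFAP in HSD still met the rule whichever retina was omitted, PAX2 and NES in HSD did not, and no member did in HFSD. Separation of both diet retinas from both ND retinas was seen, among the 5 tested members other than EDN2, for 1 of the HFD group (CD44 below), 2 of the HSD group (GFAP and NES below) and 0 of the HFSD group, beside 25.9%, 39.0% and 42.3% of all tested genes.

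The 2 diets with sucrose were also set against the 2 without. GFAP ran from 1.08 to 69.5 FPKM in the 4 sucrose retinas and from 12.1 to 524 FPKM in the 4 others, which overlapped. Its log2 difference was -4.30 with a standard error of 1.25 (limma, unadjusted p=0.00978, adjusted p=0.165). No member was called, 0.344% of all tested genes were, and of the 5 other than EDN2 only GFAP passed an unadjusted p under 0.05, where 18.3% of genes did. The interaction of fat and sucrose called 0 members and 0.00819% of genes. Before adjustment 0 of the 5 passed in it, where 3.74% of genes did.

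The retinas with much GFAP were those with much myelin. Among the genes most like GFAP, of 432 genes with a standard deviation of at least 0.5 on the log2 scale, were MBP, which encodes myelin basic protein, MAG, a myelin adhesion protein, PLLP and MOBP. Their Pearson r with GFAP over the 8 retinas ran from 0.956 to 0.982. MAG, PLLP and MOBP passed the filter only through ND retina 1, the HFD retinas and HFSD retina 2, where GFAP was highest. MBP measured 252 and 6.55 FPKM in ND, 172 and 104 FPKM in HFD, 4.34 and 4.16 FPKM in HSD, and 4.02 and 41.9 FPKM in HFSD. As for GFAP, ND retina 1 was highest, both HFD retinas followed, and HFSD retina 2 stood above its partner.

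Within a library, the level of GFAP was 2.08 and 1.85 times that of MBP in ND, 1.26 and 1.96 times in HFD, 0.545 and 0.260 times in HSD, and 0.760 and 1.66 times in HFSD. The 5 retinas with the most GFAP thus lay between 1.26 and 2.08, although their GFAP ran from 12.1 to 524 FPKM, and the 3 with the least lay below 1. Relative to VIM the level of GFAP ran from 0.00155 to 0.738, following GFAP itself.

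Across the 8 retinas 25 relations of GFAP were computed, with the 7 other members found and with 18 marker lists, each list as the mean log2(FPKM + 1) of its tested genes. The permutation treats the 8 retinas as exchangeable, although they come as 2 per diet and levels shift by diet. Its p-values take no account of this grouping, and 4.96e-05 by exact permutation is the smallest possible. GFAP followed the 17 myelin and oligodendrocyte genes with r=0.961 and rho=0.976 (exact permutation p=4.96e-05, adjusted p=0.00124; rho, exact permutation p=0.000397, adjusted p=0.00496). Without the 2 retinas farthest from the median r was 0.976, and within diets, as deviations from the diet means, it was 0.944. Values within diets draw mostly on ND and HFSD, here and for the relations below. The log2 difference of GFAP between the retinas was 5.32 in ND and 4.12 in HFSD, against 0.09 in HFD and 0.69 in HSD. The difference between the retinas of a diet had the same sign for GFAP and myelin in 4 of 4 diets.

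With PAX2 the relation was r=0.865 and rho=0.976 (exact permutation p=0.000149, adjusted p=0.00186; rho, exact permutation p=0.000298, adjusted p=0.00496). It was 0.895 without the 2 farthest retinas and 0.863 within diets. PAX2 was at 0 fragments in 3 of these retinas, so its points are tied there.

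**Figure D3:**
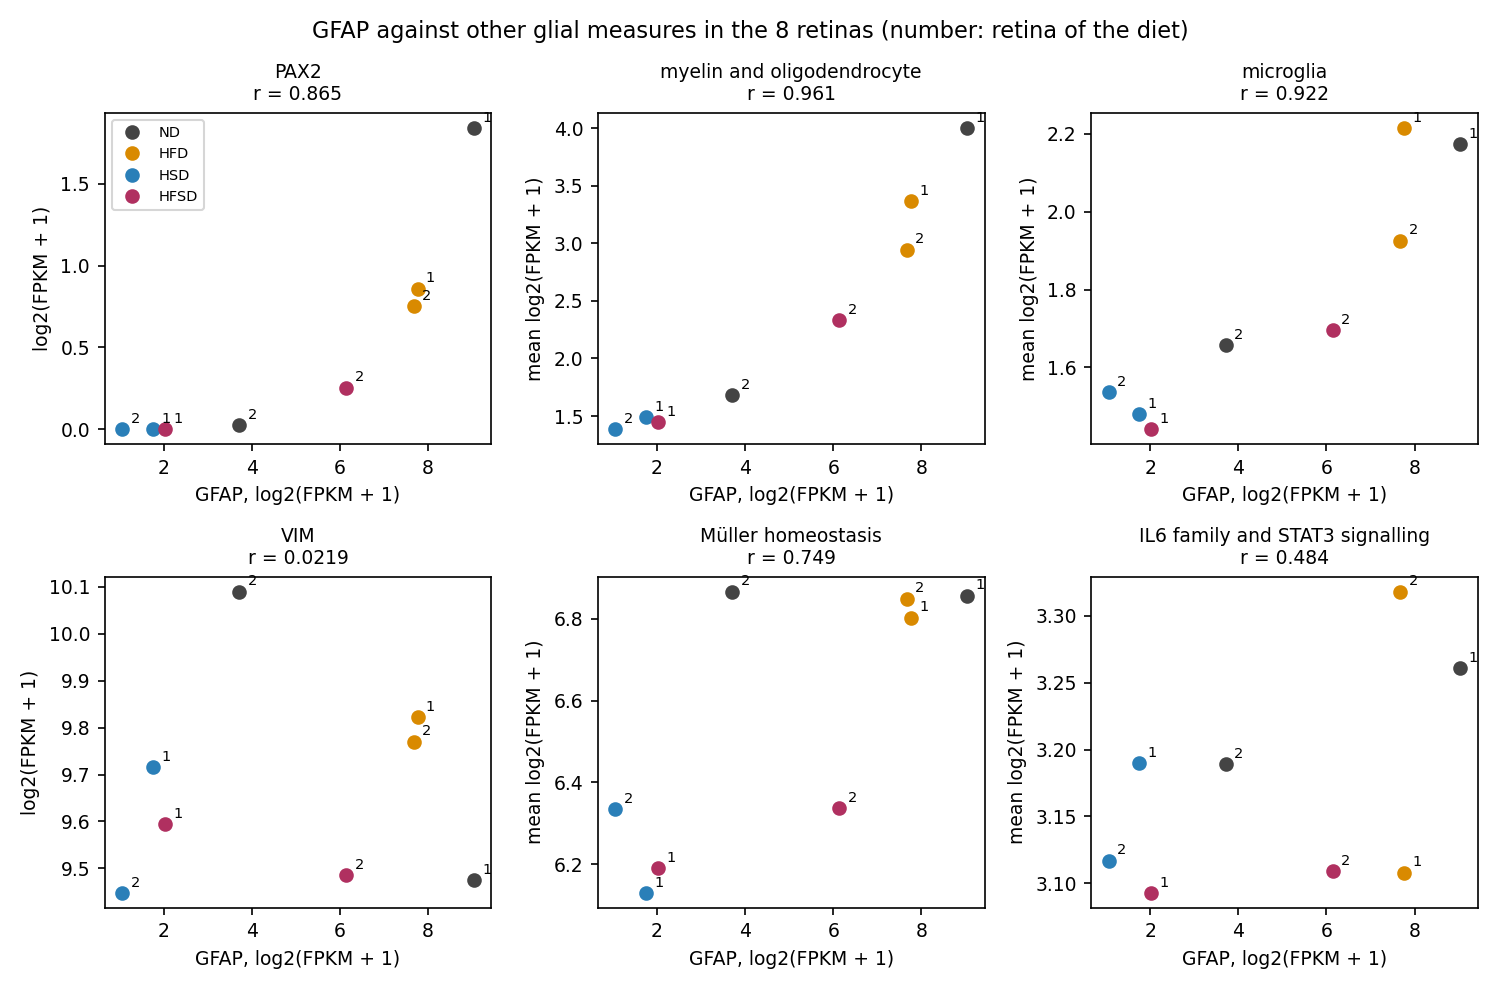
GFAP on the x axis against PAX2, VIM and the mean of 4 marker lists on the y axes, all as log2(FPKM + 1), with 1 point per retina coloured by diet and numbered by retina. PAX2, myelin and microglia climb with GFAP, VIM has an r of 0.0219, and the Müller list is lower in all 4 sucrose retinas whatever their GFAP.

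GFAP also followed 3 further lists. For 11 microglia genes r was 0.922 and rho 0.881 (exact permutation p=0.00124, adjusted p=0.0103; rho, exact permutation p=0.00724, adjusted p=0.0604), with 0.925 without the 2 farthest retinas and 0.864 within diets. For the 3 tested genes of the endothelin pathway r was 0.816 and rho 0.857 (exact permutation p=0.00325, adjusted p=0.0203; rho, exact permutation p=0.0107, adjusted p=0.0670), with 0.804 and 0.765. For 8 endothelial genes r was 0.852 and rho 0.762 (exact permutation p=0.00851, adjusted p=0.0425; rho, exact permutation p=0.0368, adjusted p=0.131), with 0.698 and 0.885. The endothelial relation rests in part on the farthest retinas, ND retina 1 and HFD retina 1. These are the 2 with the most GFAP, and some genes of both lists (VWF and EMCN of endothelium, AIF1 of microglia) passed the filter only through them. With all genes found, whatever their level, the adjusted p was 0.0535 for endothelium (r=0.821) and 0.00713 for microglia (r=0.926) by exact permutation, so the endothelial relation no longer passed.

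None of the other gliosis members had a relation with GFAP that passed the adjustment. NES had the highest, with r=0.670 and rho=0.786 (exact permutation, adjusted p=0.158), and without the 2 farthest retinas it was 0.0959. For EDN2 r was 0.469, for VIM 0.0219, for CD44 -0.117, for LIF -0.180 and for STAT3 -0.228, with adjusted p from 0.382 to 0.958 by exact permutation. Within diets VIM had an r of -0.766. With 8 retinas these values do not show that a relation is absent.

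Of the myelin genes tested, 12 of 17 (70.6%) had an r over 0.9 with GFAP, while 75 of 12203 tested genes (0.615%) did. Of these, MAG, MOBP, UGT8, SOX10, OLIG1, OPALIN and BCAS1 reached 1 FPKM only in ND retina 1, both HFD retinas and HFSD retina 2. These retinas had the most GFAP, so such genes passed the filter only where GFAP was high. Among the 432 genes with a standard deviation of at least 0.5, 37 (8.57%) did. Among 10 further astrocyte genes 0 did, although the list as a whole had r=0.769 (rho=0.833, exact permutation adjusted p=0.0568), and 0.810 with all genes found (exact permutation adjusted p=0.0433). S100B, a calcium-binding protein of astrocytes and Müller cells, ranged only from 230 to 738 FPKM. GJB6, a gap junction protein of astrocytes, was the gene most like PAX2 by r, with r=0.985 but rho=0.756. It measured 13.01 and 2.44 FPKM in ND, 5.10 and 4.46 FPKM in HFD, 2.99 and 2.73 FPKM in HSD, and 2.68 and 2.90 FPKM in HFSD. ND retina 1 again stood highest, far from the rest, and the other ND retina was the lowest.

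**Figure D4:**
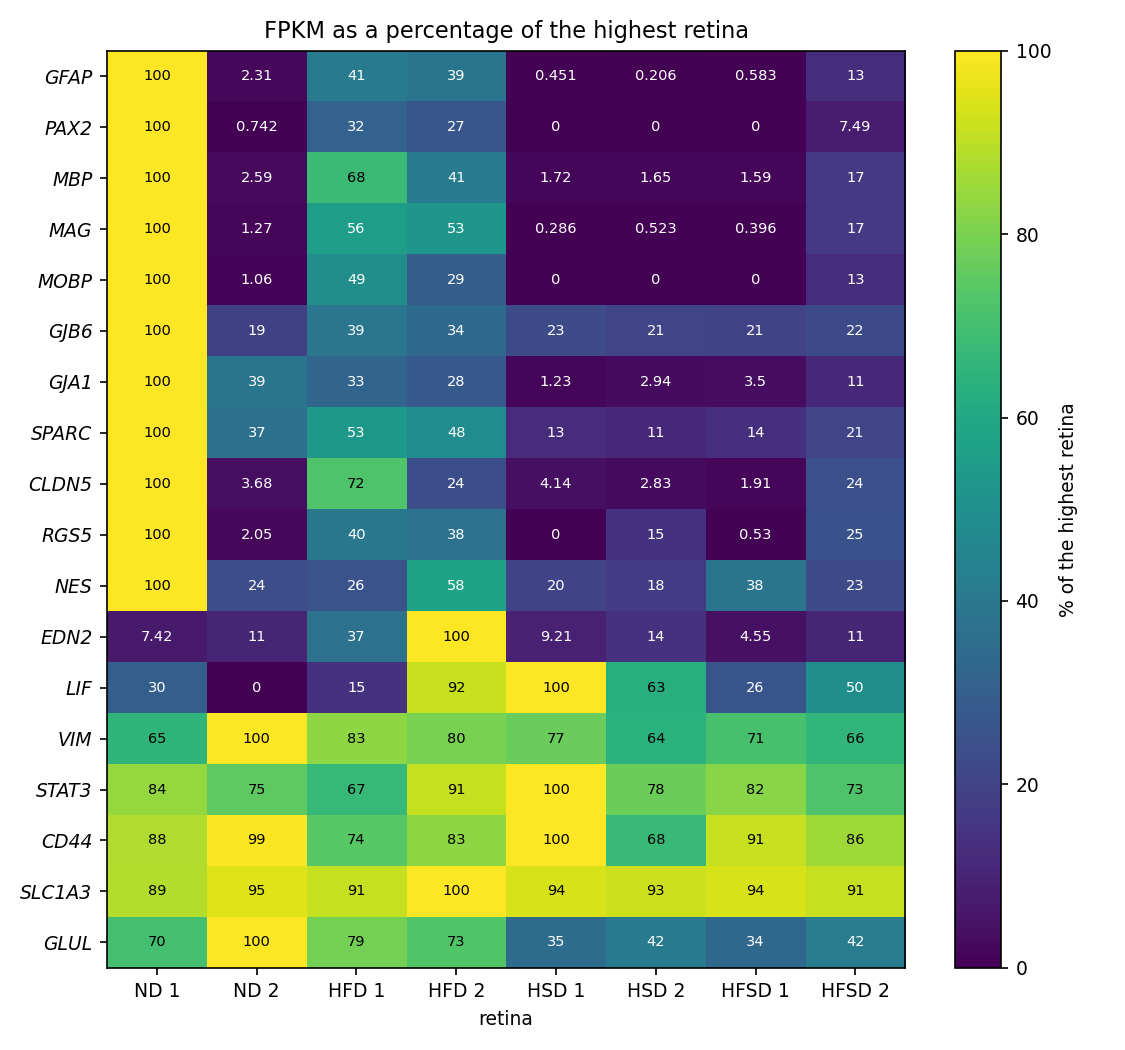
FPKM of each gene in each retina as a percentage of that gene's highest retina, for members, myelin, astrocyte, vessel and Müller genes. GFAP, PAX2, MBP, MAG, MOBP, CLDN5 and RGS5 lie at 100% in ND retina 1 and at 4% or less in ND retina 2, whereas VIM, STAT3, CD44 and SLC1A3 stay above 60% in every retina.

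The median changes of the myelin genes had the signs of the GFAP values in each diet. Their median log2 fold change was 0.25 for HFD, -1.42 for HSD (17 of 17 negative) and -1.02 for HFSD (16 of 17 negative). These values rested on the ND retinas, as those of GFAP did in HFD and HFSD. In HSD GFAP differed from the myelin genes, as it was still at -2.31 without ND retina 1. Without ND retina 1 the myelin median was 1.43 for HFD, -0.16 for HSD and 0.11 for HFSD. Without ND retina 2 it was -0.91, -2.77 and -2.36. By limma 0 were called, with 0, 3 and 1 of 17 at an unadjusted p under 0.05, all lower, where 4.31%, 7.20% and 8.07% of all tested genes passed. For the sucrose diets against the others MYRF, a transcription factor of oligodendrocytes, was left out because it passed the filter only through diets without sucrose. The median of the 16 others was -1.30 (16 of 16 negative), 0 were called by limma, and 12 were lower at an unadjusted p under 0.05 where 18.3% of all genes passed. The summed level of all 17 was 803 and 119 FPKM in ND, 532 and 380 FPKM in HFD, 78.6 and 62.4 FPKM in HSD, and 78.9 and 183 FPKM in HFSD. The myelin level thus moved with GFAP between the retinas of a diet and between diets, and its part in the GFAP differences was not tested.

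Genes of ganglion cells, whose axons are the nerve fibres, had a relation with GFAP that did not pass the adjustment. The mean of the 13 had r=0.639 and rho=0.714 (exact permutation, adjusted p=0.163; rho, exact permutation adjusted p=0.160), with 0.520 without the 2 farthest retinas and 0.793 within diets, and 0 of the 13 had an r over 0.9. Their median log2 fold change was 0.05 for HFD, -0.25 for HSD (10 of 13 negative) and 0.29 for HFSD (4 of 13 negative), with 0 called by limma. Without ND retina 1 it was 0.45, 0.03 and 0.62, and without ND retina 2 it was -0.33, -0.59 and -0.16. The difference between the 2 lists was not tested.

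Of 14 Müller cell genes 1 (7.14%) had an r over 0.9 with GFAP, beside 0.615% of all tested genes. The mean of the 14 had r=0.749 with GFAP (exact permutation, adjusted p=0.126), but 0.235 within diets. GLUL, glutamine synthetase, measured 1489 and 2127 FPKM in ND, 1685 and 1551 FPKM in HFD, 754 and 883 FPKM in HSD, and 722 and 890 FPKM in HFSD. The 4 sucrose retinas lay below the 4 others, which 12.9% of all tested genes did in either direction, and the log2 difference was -1.07 (limma, adjusted p=0.0501). TIMP3, an inhibitor of matrix proteases, fell in the sucrose diets by 1.71 on the log2 scale (limma, adjusted p=0.0437), a call that was lost with any 1 retina other than ND retina 2 left out (limma, adjusted p from 0.0524 to 0.166). SLC1A3, the glutamate transporter of Müller cells, had a log2 difference of -0.01, and 1 of 14 genes of the list was called, where 0.344% of all genes were. At an unadjusted p under 0.05, 7 of the 14 were lower and 1 higher in the sucrose diets, where 18.3% of all genes passed. SPARC, a secreted matrix protein on this list, did follow GFAP, with r=0.911. It measured 621 and 229 FPKM in ND, 331 and 301 FPKM in HFD, 78.4 and 70.3 FPKM in HSD, and 84.9 and 129 FPKM in HFSD, and its log2 fold change in HSD was -2.33 (limma, adjusted p=0.214).

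Among the 10 further astrocyte genes GJA1, the gap junction protein connexin 43, was the one called, where 0.344% of all genes were. It fell in the sucrose diets by 2.80 on the log2 scale (limma, adjusted p=0.0311), and the call was lost without HFD retina 1, HFD retina 2, HSD retina 1, HSD retina 2 or HFSD retina 1 (limma, adjusted p from 0.0810 to 0.106). It measured 36.0 and 14.1 FPKM in ND, 11.7 and 10.1 FPKM in HFD, 0.442 and 1.06 FPKM in HSD, and 1.26 and 3.97 FPKM in HFSD. Unlike GFAP, its sucrose retinas lay below all 4 others, a separation that 12.9% of all tested genes had in either direction. SLC39A12, a zinc transporter, measured 2.76 and 2.38 FPKM in ND and between 0.0978 and 0.508 FPKM in the 6 other retinas. It passed the filter only through the ND libraries, so its log2 fold changes of -1.32, -1.47 and -1.56 are given as a description and the counts leave it out. Against ND the median log2 fold change of the 9 others was -0.13 for HFD, -0.27 for HSD and -0.15 for HFSD, with 0 called by limma and 2, 1 and 1 lower at an unadjusted p under 0.05, where 4.31%, 7.20% and 8.07% of all tested genes passed. With SLC39A12 included, the median of the 10 was -0.20, -0.38 and -0.24. Without ND retina 1 this median was -0.05, -0.06 and -0.01, and without ND retina 2 it was -0.46, -0.47 and -0.32. In the sucrose diets 1 of the 9 was lower (GJA1) and 1 higher (SLC1A2) at that level, where 18.3% of all genes passed. SLC1A2, a glutamate transporter, had a log2 difference of 0.43 in the sucrose diets (limma, adjusted p=0.270).

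Genes known from reactive glia were found for 25 of 29 listed, and 15 were tested. By limma 0 were called in any diet against ND, with 1 of 15 higher in HFD, 3 lower in HSD and 5 lower in HFSD at an unadjusted p under 0.05, where 4.31%, 7.20% and 8.07% of all tested genes passed. The median log2 fold change was 0.19 for HFD, -0.41 for HSD and -0.35 for HFSD. Without ND retina 1 it was 0.24, -0.37 and -0.52, and without ND retina 2 it was 0.03, -0.51 and -0.36. The 11 microglia genes had medians of the same sign, 0.19 for HFD (9 higher), -0.46 for HSD (10 lower) and -0.26 for HFSD (10 lower). Of the 11, 1 was higher in HFD and 3 were lower in each sucrose diet at an unadjusted p under 0.05 beside the same shares of all genes, with 0 called by limma. Without ND retina 1 their median was 0.36, -0.19 and 0.01, and without ND retina 2 it was -0.05, -0.58 and -0.66. Without HFD retina 1 the HFD median was -0.02, so its sign rested on single retinas. The summed level of all 13 microglia genes found, tested or not, ran from 46.8 to 66.6 FPKM in ND and HFD and from 40.1 to 47.7 FPKM in HSD and HFSD. The part of microglia in the changes of these genes was not tested. CHI3L1, a secreted chitinase-like protein of reactive astrocytes, measured 35.1 and 30.4 FPKM in ND and 69.2 and 91.0 FPKM in HFD, a log2 fold change of 1.26 (limma, unadjusted p=0.00784, adjusted p=0.998). In HSD it measured 26.1 and 15.05 FPKM and in HFSD 24.3 and 12.1 FPKM. SPP1, a secreted ligand of CD44 and integrins, measured 346 and 716 FPKM in ND, 566 and 466 FPKM in HFD, 242 and 217 FPKM in HSD, and 292 and 286 FPKM in HFSD. LCN2 and SERPINA3, strong markers of reactive astrocytes, held at most 5 and 1 fragments in any library. As a whole the list had r=0.708 with GFAP (exact permutation, adjusted p=0.134) and -0.126 within diets.

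The IL-6 family and its STAT3 pathway, from which LIF and STAT3 themselves were left out, gave 20 tested genes of 24 found. By limma 0 were called against ND, with 0, 1 and 0 of 20 at an unadjusted p under 0.05, where 4.31%, 7.20% and 8.07% of all tested genes passed for HFD, HSD and HFSD. Their median log2 fold change was -0.08 for HFD, -0.04 for HSD and -0.08 for HFSD. Of the receptor subunits that LIF signals through, LIFR ran from 13.2 to 21.3 FPKM and IL6ST, also called gp130, from 21.0 to 34.2 FPKM. OSMR, the oncostatin M receptor, ran from 0.705 to 1.80 FPKM, and IL6R, the interleukin-6 receptor, from 0.181 to 1.18 FPKM. SOCS2, an inhibitor that cytokine signals induce, lay between 1.12 and 1.95 FPKM. CEBPB, a transcription factor of the acute response, was at 26.8 FPKM in HFD retina 2 and between 1.38 and 5.58 FPKM in the other 7.

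Around EDN2 and CD44 the picture was mixed. EDNRB, the endothelin receptor of astrocytes and Müller cells, measured 15.3 and 5.91 FPKM in ND, 5.75 and 8.49 FPKM in HFD, 2.41 and 3.30 FPKM in HSD, and 5.47 and 7.52 FPKM in HFSD. Its log2 fold change was -1.47 in HSD (limma, unadjusted p=0.00637, adjusted p=0.438), and 0 of the 3 endothelin genes tested were called by limma, with 0, 1 and 1 of 3 at an unadjusted p under 0.05 beside the 4.31%, 7.20% and 8.07% of all genes for HFD, HSD and HFSD. Of 8 ligands and partners of CD44, SRGN, the proteoglycan serglycin, was the one called, where 0.0574% of all genes were in HSD and 0.0164% in HFSD. It fell by 1.73 in HSD (limma, adjusted p=0.0349) and by 2.36 in HFSD (limma, adjusted p=0.00604) on the log2 scale, while CD44 itself was not called. With any 1 of its retinas left out SRGN was no longer called in HSD (limma, adjusted p from 0.0783 to 0.164) and was still called in HFSD (limma, adjusted p from 0.0208 to 0.0430). At an unadjusted p under 0.05, 2 of the 8 were higher in HFD, SRGN with a log2 fold change of 0.58 and CD74, which is also on the microglia list, with 0.70, while 3 were lower in HSD and 2 in HFSD, beside the same shares of all genes (4.31%, 7.20% and 8.07%). Among 7 other intermediate filament genes 0 were called by limma, with 0, 1 and 1 of 7 at an unadjusted p under 0.05 where 4.31%, 7.20% and 8.07% of all genes passed. Their median log2 fold change was 0.02 for HFD, -0.21 for HSD and 0.10 for HFSD. Without ND retina 1 it was 0.19, 0.03 and 0.19, and without ND retina 2 it was -0.19, -0.42 and -0.14.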

How the data were processed

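Retinal RNA was sequenced from 2 retinas in each of 4 diets. The authors checked reads with FastQC, trimmed them, mapped them with TopHat2, discarded reads at several places and deposited FPKM per gene; genome build and tool versions are not given in the sources used here. Whole fragments and library totals were recovered from the FPKM steps (100.0% of values above 0 whole within 0.01). The 12204 protein-coding genes that reached 1 FPKM in 2 or more libraries were fitted as log2(FPKM + 1) by limma 3.58.1 in R 4.3.3, with 1 model of 4 diets (4 residual degrees of freedom), a mean-variance trend and Benjamini-Hochberg adjustment. Fold changes on this scale understate those of low genes. Correlations used exact permutation in Python 3.11.15, two-sided. Members were named in every library; of each marker list the 4 genes changed most and preset partners could be named, and for each member the 5 genes of highest r; 1 gene under this rule is not reported here. LCN2, SERPINA3, IL6R, MYRF, AIF1 and the ratios of GFAP to MBP and VIM were picked after their values were seen. The members and lists were chosen with earlier results of these data known. Scripts were tested on simulated data. Replicate numbers did not pair the retinas. Alternatives were another pseudocount, no filter, no trend, 2 groups alone, upper-quartile scaling, quantile normalization, voom on recovered fragments, a replicate block, Spearman rho and leaving out each retina.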

Additional observations from a re-analysis of the deposited data

How the results depend on the processing

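Among members that passed the filter, the count called was 0 under every alternative tried, the replicate block included; PAX2, which missed it, was called in the unfiltered fit without ND retina 2. Same-numbered retinas did not deviate together (r from -0.165 to 0.0813 over 6 pairs of diets), and the block moved the calls over all genes from 7 to 5 in HSD, from 2 to 4 in HFSD, from 42 to 25 for sucrose and from 1 to 0 for the interaction. Of 452 alternative log2 values of members 409 kept direction and side of the threshold and 40 turned direction; the cause was not tested. Of these, upper-quartile scaling gave -0.021 and quantile normalization -0.047 for VIM in HFD, quantile normalization 0.0074 for EDN2 in HFSD, and for CD44 under sucrose upper-quartile scaling gave 0.0078 and voom 0.037. Without ND retina 2, in the fit without the filter, PAX2 passed the threshold by limma, with -1.84 in HSD (adjusted p=0.0298), -1.71 in HFSD (adjusted p=0.0398) and -1.26 under sucrose (adjusted p=0.0234); PAX2 was at 0 in 3 sucrose libraries, and without ND retina 1 it was -0.03, 0.10 and -0.35. The single retina left in a diet was taken to vary like the others.

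With each retina left out in turn, log2 values turned direction in HFD for GFAP (-1.32 to 4.0), VIM (-0.29 to 0.32), NES (-1.06 to 0.49), STAT3 (-0.24 to 0.19), PAX2 (-1.03 to 0.78) and LIF (-0.00015 to 0.24). In HSD they did for VIM (-0.51 to 0.11), STAT3 (-0.034 to 0.32) and CD44 (-0.43 to 0.088). In HFSD they did for GFAP (-4.96 to 0.37), VIM (-0.55 to 0.065), NES (-1.33 to 0.22), STAT3 (-0.13 to 0.043), EDN2 (-0.18 to 0.059), CD44 (-0.16 to 0.0061) and PAX2 (-1.71 to 0.10). Under sucrose they did for STAT3 (-0.045 to 0.17) and CD44 (-0.13 to 0.13), and in the interaction for GFAP (-1.33 to 4.0), VIM (-0.36 to 0.25), NES (-0.099 to 1.45), STAT3 (-0.37 to 0.054) and PAX2 (-0.65 to 1.16). GFAP in HSD (-7.63 to -2.31) and under sucrose (-5.64 to -2.97) and EDN2 in HFD (0.82 to 1.78) kept their direction.

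With a pseudocount of 0.1 the fold rule gave 3 members in HFD and 4 in HSD, where LIF became 2.17-fold higher. It gave from 1 to 4 in HFD, 1 to 3 in HSD and 1 to 3 in HFSD with a retina left out. Without ND retina 1 it gave 3 members for HFD, 1 for HSD and 1 for HFSD, and GFAP was then 16.1-fold higher in HFD and 2.84-fold higher in HFSD; without ND retina 2 it gave 4 in HFD, GFAP among them at 0.401 of ND; without HFD retina 2 it gave 2 in HFD.

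Of 25 relations of GFAP 5 passed the adjustment; 2 did by Spearman rho (myelin and PAX2), 3 with a pseudocount of 0.1, 0 without the 2 farthest retinas and 0 to 6 with a retina left out (3 without ND retina 1, 1 without HSD retina 1, 0 without HFSD retina 1). Fewer retinas give fewer orders to permute, and r itself stayed between 0.955 and 0.974 for myelin and between 0.853 and 0.917 for PAX2 with a retina left out. Lists of all genes found, an alternative added after seeing the data, gave 0.961 for myelin. Without the 2 farthest retinas r turned sign for VIM (-0.053), STAT3 (0.428), EDN2 (-0.221), the IL-6 family (-0.280), rods (-0.319), muscle (0.332), fibroblasts (0.278), lens (0.0858) and immediate early genes (-0.793). With a retina left out it did for VIM (-0.234 to 0.277), STAT3 (-0.425 to 0.0696), LIF (-0.443 to 0.0751), CD44 (-0.728 to 0.0896), rods (-0.278 to 0.300), muscle (-0.594 to 0.0014) and fibroblasts (-0.470 to 0.574).

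With 2 retinas per diet, 1 retina decided most directions. PAX2, LIF and EDN2 rest on few fragments.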
